A study of Mus musculus with 12 samples.

Results

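The interferon response genes described here are 44 protein-coding genes that were chosen by their mouse GENCODE symbol, and all 44 were found among the 55414 genes of the count table. RNA was sequenced from 12 libraries of sorted small intestinal crypt cells of naive C57BL/6J mice, aged 8 to 12 weeks in the study's methods, in 4 groups of 3 libraries. Paneth cells (PC), the granule-filled cells at the crypt base that secrete antimicrobial peptides, and the other crypt cells (nonPC, called non-Paneth below) were collected from WT mice and from GRvillinKO mice (labelled GRKO), in which the name places the deletion of the glucocorticoid receptor gene Nr3c1 under the villin promoter, active in intestinal epithelium. The Paneth gate took CD24+ and cKIT+ events with medium to high side scatter after removal of those with CD31, CD45 or TER119, whereas no source used here states how the non-Paneth gate was drawn. The genotype was read from the sample titles, because the separate genotype field of the labels gives every Paneth library WT and every non-Paneth library GRKO. Neither the labels nor the methods tie the 3 libraries of a group to separate mice, so that p-values measure the spread between these libraries, and in sorted bulk samples fewer cells of a type and less RNA per cell cannot be told apart.

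Interferons are secreted proteins that bind receptors on the cell surface and switch on genes that restrict viruses and other microbes inside cells. Type I and type III interferons act through the kinases JAK1 and TYK2 and a complex that includes STAT2 and IRF9 and binds a promoter element called ISRE, whereas type II interferon acts through JAK1 and JAK2 and on an element called GAS. The intestinal epithelium is known to respond to type III interferon in particular, and the glucocorticoid receptor (GR) is a hormone-activated transcription factor known for restraining inflammatory genes in many cell types. By their known roles, the members fell into 17 antiviral effectors, 14 genes of sensing and signalling, 8 GTPases that act on the membranes around microbes, and 5 genes of antigen processing.

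The promoters of the members were searched for the cores of the ISRE and GAS elements. RefSeq promoter sequences (build GRCm38.p6, from 250 bases before to 50 bases after the start of a gene) were matched by symbol for 34 of the 44 members, with 39 promoters in all. The core of the ISRE, searched as GAAANNGAAA on both strands, was found in 17 of these 39 promoters (43.6%, in 17 of 34 genes) and in 3.44% of all 32851 promoters. The core of the GAS element, searched as TTCNNNGAA, which reads the same on both strands, was found in 13 of the 39 (33.3%) and in 8.30% of all promoters. Such matches describe the letters only and are not shown to be sites. No promoter entry was matched for Zbp1, Ifi27, Gbp6, Tap2, Parp14, Iigp1, Nlrc5, Oas2, Parp9 and Usp18.

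The following stretches upstream of the start of 5 members that were lower in GRKO than in WT non-Paneth cells are printed 5′ to 3′ on the strand of the gene, with each ISRE core match in capitals (a match on the opposite strand shows as its reverse complement).
Isg15: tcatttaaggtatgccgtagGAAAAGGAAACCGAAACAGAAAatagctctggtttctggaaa
Ifit1: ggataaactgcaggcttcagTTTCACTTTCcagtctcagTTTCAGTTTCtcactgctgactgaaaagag
Ifit3: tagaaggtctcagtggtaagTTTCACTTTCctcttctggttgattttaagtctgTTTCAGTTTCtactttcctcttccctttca
Rsad2: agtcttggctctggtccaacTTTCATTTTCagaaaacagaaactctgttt
Stat2: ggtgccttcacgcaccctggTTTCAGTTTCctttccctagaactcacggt
In GRCm38.p6, these windows lie at chr4:156200855-156200916, minus strand for Isg15, at chr19:34640765-34640833, plus strand for Ifit1, at chr19:34583353-34583436, plus strand for Ifit3, at chr12:26456543-26456592, minus strand for Rsad2 and at chr10:128270256-128270305, plus strand for Stat2. Isg15 held 3 overlapping matches, which begin 78, 72 and 66 bases before its start, while Ifit1 and Ifit3 each held 2 separate matches.

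The same core was found upstream of members whose genotype difference in non-Paneth cells did not pass the test, shown here for 4 of them for comparison with the 5 above.
Bst2: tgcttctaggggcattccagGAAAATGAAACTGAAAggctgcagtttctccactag
Irgm1: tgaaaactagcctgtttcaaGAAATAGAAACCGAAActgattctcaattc
Igtp: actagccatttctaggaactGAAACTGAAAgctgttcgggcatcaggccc
Gbp2: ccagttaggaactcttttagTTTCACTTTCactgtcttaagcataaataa
Their windows are chr8:71537567-71537622, minus strand (Bst2), chr11:48871421-48871470, minus strand (Irgm1), chr11:58199502-58199551, plus strand (Igtp) and chr3:142620584-142620633, plus strand (Gbp2). The promoter of Irf1, a transcription factor gene with a GAS core that begins 90 bases before its start (chr11:53769904-53769952, plus strand), reads as follows, with the GAS core in capitals.
Irf1: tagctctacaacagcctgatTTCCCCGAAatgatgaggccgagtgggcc

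The libraries held 11126297 to 15910292 counts. Levels are given as TMM-scaled CPM, the usual CPM (counts scaled to 1 common library total) after correction of each total by a TMM factor, and all 44 members passed the filter on low counts that left 13057 genes tested. The deleted gene, Nr3c1, was at 110.4, 126 and 131 in WT non-Paneth cells and at 20.03, 13.1 and 24.5 in GRKO non-Paneth cells, and at 40.8, 50.3 and 54 in WT and 7.97, 5.82 and 15.4 in GRKO Paneth cells, so that every GRKO library lay below every WT library of its fraction. All 7 Paneth markers, such as Lyz1, were higher in the Paneth than in the non-Paneth libraries of both genotypes. The WT libraries numbered 2 stand apart in that they hold Xist (193 in Paneth and 214 in non-Paneth cells), which was at or below 0.427 in the other 10 libraries, and almost no Ddx3y. The counts of members in each comparison are given with and without them below.

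Before any comparison, the members differed widely in level among themselves. Per kilobase of exon (TMM-scaled CPM per kb, mean ± SD, n = 3), Ifitm3, which encodes a membrane protein that blocks virus entry, was the highest member in every group, at 70.5 ± 6.66 in WT non-Paneth, 107 ± 26.1 in GRKO non-Paneth, 169 ± 12.9 in WT Paneth and 114 ± 38.8 in GRKO Paneth cells. In WT non-Paneth cells the next per-kb levels were 67.9 ± 9.24 for Psmb8, an immunoproteasome subunit, 53 ± 6.89 for Irf1, 49.1 ± 39.9 for Ubd and 41.5 ± 8.6 for Irf7. Neighbours in this order, Ifitm3 included, did not differ beyond 1 SD of each. With the longest transcript as the length, Psmb8 and Irf1 ranked above Ifitm3 in WT non-Paneth cells. The order in GRKO non-Paneth cells after Ifitm3 was Psmb8 (35.3 ± 12.1), Irf1 (31.5 ± 6.97), Psmb9 (19.3 ± 4.48) and Trim25 (18.2 ± 0.977), so that Ubd and Irf7 were no longer among the 5 highest. Psmb8 and Irf1 did not differ beyond their spread there, nor did Psmb9 and Trim25. By the longest transcript, Trim25 ranked 7 in GRKO non-Paneth cells, below Tap1 (5) and Irf8 (6), and 4 in GRKO Paneth cells. Among WT Paneth cells the 4 members after Ifitm3 were Psmb8 (35 ± 12.8), Irf1 (24.2 ± 4.16), Psmb9 (17.9 ± 5.42) and Trim25 (17.7 ± 4.89). Neighbours among these 4 did not differ beyond 1 SD of each. GRKO Paneth cells held Trim25 (21.2 ± 2.97), Psmb8 (19 ± 8.7), Irf1 (18.8 ± 2.29) and Bst2 (12.9 ± 2.22), of which Trim25, Psmb8 and Irf1 did not differ beyond their spread.

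Summed over the 44 members, the level was highest in WT non-Paneth cells, with 2188, 3026 and 2980 TMM-scaled CPM in the 3 libraries. The GRKO non-Paneth libraries summed to 1688, 1585 and 1260, the WT Paneth libraries to 950.0, 1653 and 1230, and the GRKO Paneth libraries to 1210, 1272 and 943. Replicates tended to deviate in the same direction over many members. WT replicate 1 was the lowest library for 35 of the 44 members in Paneth cells and for 35 in non-Paneth cells, with 29 in both, and WT replicate 2 was the highest for 42 members in Paneth cells. In GRKO, replicate 3 was the lowest library for 32 members in Paneth and 30 in non-Paneth cells, with 24 in both. The members of a group therefore are not independent measurements. The median coefficient of variation across the 3 libraries was 39.0% in WT Paneth, 23.7% in GRKO Paneth, 21.7% in WT non-Paneth and 18.4% in GRKO non-Paneth cells.

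**Figure D1:**
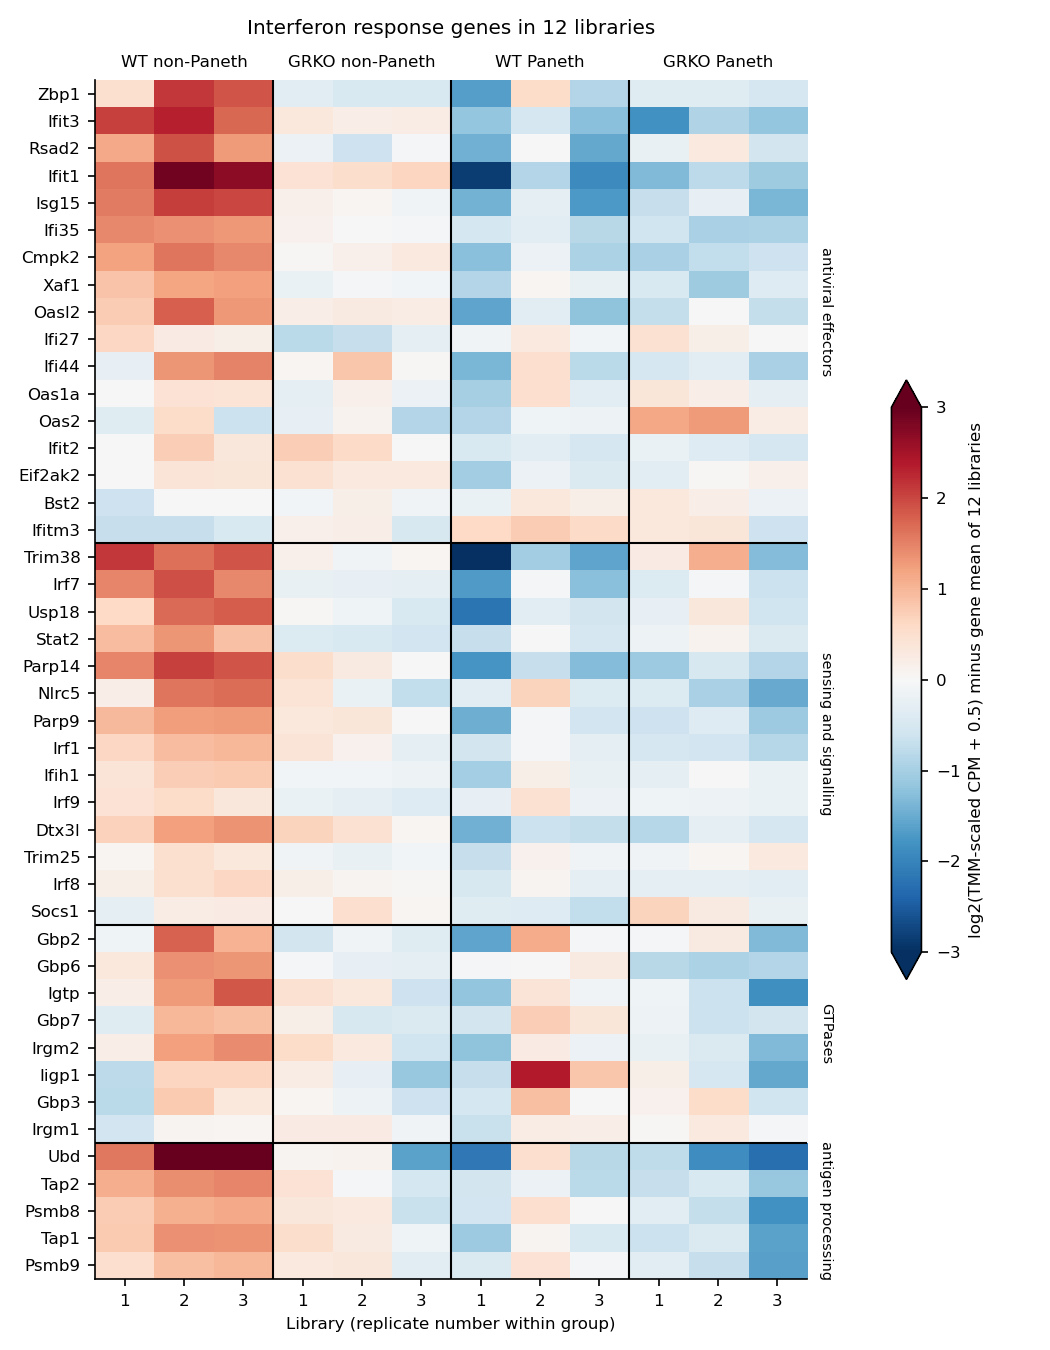
Levels of the 44 members (rows, by role) in the 12 libraries (columns), as log2(TMM-scaled CPM + 0.5) minus the mean of the gene over all libraries, in log2 units, with colours limited to the range shown. The 3 WT non-Paneth columns are the reddest for most antiviral effectors and genes of sensing and signalling, and WT Paneth replicate 1 is the bluest column.

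The genotypes were compared first in non-Paneth cells. Of the 44 members, 24 were lower in GRKO than in WT non-Paneth cells and 0 were higher at an adjusted p under 0.05. The other 20 did not pass the test. An unadjusted p under 0.05 was found for 31 members and for 6073 of all 13057 genes tested. The 24 make up 54.5% of the members, where 19.8% of all genes tested were lower and 17.5% were higher. The median log2 fold change of the members was -0.96, against 0.02 for all genes tested, and 38 of the 44 had a negative value. All 3 GRKO libraries lay below all 3 WT libraries for 27 members (61.4%), against 27.5% of all genes tested. Of the 24 called members, 23 were among these, and Nlrc5 was called although its ranges overlapped, a call that held in 15 of 22 alternatives. Trim25, Tap1, Psmb8 and Psmb9 lay wholly below WT without passing the test. Without both WT replicate 2 libraries 22 members were lower, without both WT replicate 1 libraries 31, and under the other scalings 22 (library totals) to 27 (RLE) were lower. Among all genes, 2097 of 13267 were lower without both WT replicate 2 libraries and 2536 of 13279 without both WT replicate 1 libraries. With library totals 1478 of all 13057 genes were lower, and with RLE 2877.

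Antiviral effectors were lower in 10 of 17 cases and none passed the test as higher. Isg15 (chr4:156283883-156285303, this and the following gene positions in GRCm39), a ubiquitin-like protein that is attached to other proteins, was at 19.2, 27.8 and 26.6 TMM-scaled CPM in the WT and at 6.94, 6.5 and 5.77 in the GRKO libraries. Its groups did not overlap, and the log2 fold change was -1.94 (SE 0.31, adjusted p = 0.00034). Ifit1 (chr19:34618271-34632174), which binds viral RNA that lacks host cap marks, was at 18.9, 47.1 and 40.7 in WT and 8.15, 8.68 and 9.39 in GRKO libraries, a log2 fold change of -2.03 (SE 0.38, adjusted p = 0.0018). The GRKO values of Ifit1 lay close together, whereas WT replicate 1 was far below the other WT libraries and still above all of GRKO. Ifit3 (chr19:34560899-34566443), its partner in the same complex, was at 6.74, 8.31 and 5.34 in WT against 1.68, 1.51 and 1.55 in GRKO libraries, with a log2 fold change of -2.10 (SE 0.35, adjusted p = 0.0004). Only 58.2% of the 50-base windows of Ifit3 were unique in the genome, which leaves its counts uncertain.

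Rsad2 (chr12:26492745-26506451), which encodes viperin, an enzyme that makes a chain-terminating nucleotide, was at 4.2, 7.5 and 4.65 in WT and 1.4, 0.88 and 1.55 in GRKO non-Paneth libraries, and its log2 fold change was -2.09 (SE 0.45, adjusted p = 0.0022). Its neighbour on the chromosome, Cmpk2 (chr12:26519203-26529836), a mitochondrial nucleotide kinase, was at 41.9, 55 and 49.4 against 18.2, 19.8 and 22, a log2 fold change of -1.29 (adjusted p = 0.00028). Both genes showed all GRKO libraries below all WT libraries. Zbp1 (chr2:173033815-173060724), a sensor of Z-form nucleic acids that triggers cell death, was at 25.1, 79.5 and 67.9 in WT and at the narrow values of 14.3, 12.9 and 12.9 in GRKO libraries, a log2 fold change of -2.10 (SE 0.54, adjusted p = 0.014). WT replicate 1 was the low value for Zbp1 as well. The remaining antiviral effectors that were lower were Ifi35 (-1.35), Xaf1 (-1.28), Oasl2 (-1.12) and Ifi27 (-0.96, all log2 fold changes). Oasl2 lost its call without GRKO non-Paneth replicate 1 or WT non-Paneth replicate 2 (adjusted p = 0.052 in each). Not past the test were Ifi44, Oas1a, Oas2, Ifit2, Eif2ak2, Bst2 and Ifitm3, with log2 fold changes from -0.73 for Ifi44 to 0.60 for Ifitm3. Ifit2, encoded beside Ifit1 and Ifit3, was at 4.07, 7.21 and 5.29 in WT and 7.22, 6.33 and 4.09 in GRKO libraries, so that its ranges overlapped.

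Sensing and signalling genes were lower in 11 of 14 cases, the largest share among the roles. Irf7 (chr7:140842619-140846398), the transcription factor that amplifies type I interferon production, was at 139.6, 194 and 137 in WT and 43.1, 42 and 40.9 in GRKO non-Paneth libraries. The lowest WT value of Irf7 was thus far above the highest GRKO value, and the log2 fold change was -1.90 (SE 0.35, adjusted p = 0.0021). Stat2 (chr10:128106352-128128735), a subunit of the complex that binds ISRE, was at 62.1, 82.5 and 60.2 against 24.6, 23.8 and 21.8, a log2 fold change of -1.55 (adjusted p = 3.2e-05). Irf9, the DNA-binding subunit of that complex, was at 45.9, 49.9 and 43 in WT and 29.4, 28.1 and 25.8 in GRKO libraries, with a smaller log2 fold change of -0.74 (adjusted p = 0.0019). Usp18 (chr6:121222848-121247877), which removes ISG15 from proteins and dampens the type I receptor, was at 7.0, 15.5 and 16.8 and 4.52, 4.02 and 3.1, respectively, a log2 fold change of -1.76 (adjusted p = 0.0074).

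Trim38 (chr13:23953896-23975511), a ubiquitin ligase of innate signalling, was at 23, 16.6 and 19.5 in WT and 5.5, 4.53 and 5.13 in GRKO non-Paneth libraries, and its log2 fold change was -1.96 (SE 0.54, adjusted p = 0.017), with an adjusted p of 0.056 without GRKO non-Paneth replicate 2. Parp14 (chr16:35653231-35692003), an ADP-ribosyltransferase, was at 146, 221 and 199 against 76.7, 64.3 and 53.1, a log2 fold change of -1.55 (adjusted p = 0.00056). The neighbouring pair Parp9 and Dtx3l, which form an enzyme complex, had log2 fold changes of -0.96 and -0.71. For Dtx3l (chr16:35746881-35759521) the groups nearly met, with 87.8, 129 and 139 in WT and 86.3, 74.9 and 56.4 in GRKO libraries. Its call held in 17 of 22 alternatives and was lost with library totals (adjusted p = 0.14), without both WT replicate 2 libraries, and without each of GRKO replicate 3, WT replicate 2 and WT replicate 3 of the non-Paneth cells (adjusted p = 0.058 to 0.08). Irf1, the transcription factor whose GAS-containing promoter is shown above, had a log2 fold change of -0.75, the RNA sensor gene Ifih1 of -0.75, and Nlrc5, an activator of class I genes, of -1.49. Trim25, Irf8 and Socs1 did not pass the test, and Socs1, an inhibitor of JAK kinases, was at 1.65, 2.5 and 2.56 in WT and 2.1, 3.14 and 2.2 in GRKO libraries.

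Among the GTPases, 1 of 8 passed the test. Gbp6 (chr5:105418568-105443751), a guanylate-binding protein, was at 1.97, 4.59 and 4.49 in WT and 1.4, 1.17 and 1.12 in GRKO non-Paneth libraries, a log2 fold change of -1.58 (adjusted p = 0.0021). Only 30.7% of its 50-base windows were unique in the genome and 25.4% of its exonic bases overlap another gene on the same strand, so this value is uncertain. The other 7 had log2 fold changes from -1.64 for Gbp2 to 0.25 for Irgm1. Igtp, a GTPase that acts on the vacuoles of microbes, was at 26.8, 57.7 and 87 in WT and 32.5, 29.1 and 15 in GRKO libraries, which overlapped because WT replicate 1 was low. Irgm1, a regulator of the same family, was at 32.2, 51.2 and 50.3 and 57.7, 57.4 and 44.7, without any such gap.

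Antigen processing genes passed the test in 2 of 5 cases. Ubd (chr17:37504783-37506987), a ubiquitin-like protein that marks proteins for the proteasome, had the largest change of all members in this comparison, from 13.5, 37.5 and 86.4 in WT to 4.47, 4.53 and 1.03 in GRKO libraries, a log2 fold change of -3.78 (SE 0.89, adjusted p = 0.01). Its 3 WT libraries differed several-fold among themselves. Tap2, a subunit of the peptide transporter of class I presentation, was at 66.4, 82.2 and 86.3 in WT and 41.6, 29.6 and 21.2 in GRKO libraries, a log2 fold change of -1.35 (adjusted p = 0.00079). Tap1 (chr17:34405996-34416199), its partner, was at 111, 168 and 164 against 93.7, 78.4 and 58.6, with no overlap and a log2 fold change of -0.94 (adjusted p = 0.056). Psmb8 and Psmb9 had log2 fold changes of -0.94 and -0.68 that did not pass.

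**Figure D2:**
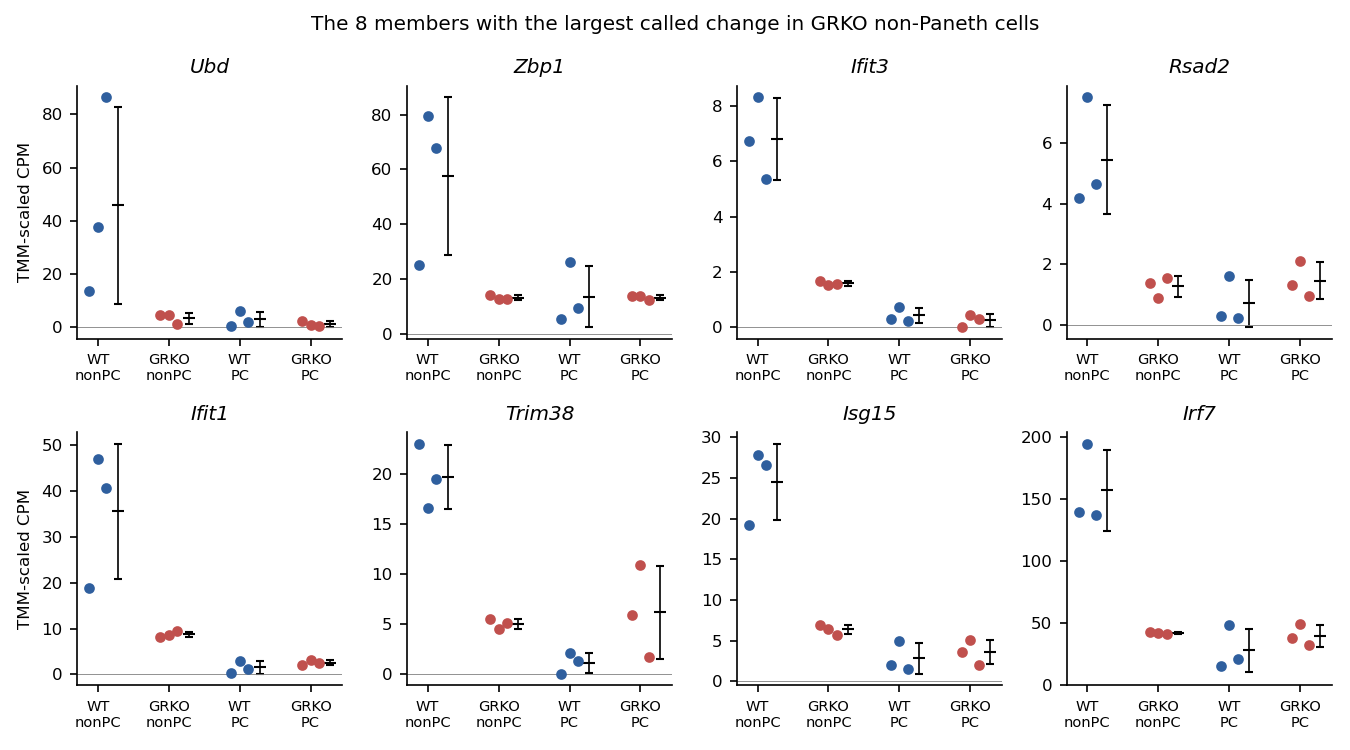
Levels of the 8 members with the largest change among those that passed the test between GRKO and WT non-Paneth cells, in TMM-scaled CPM (linear axes). Each point is a library (blue WT, red GRKO), the horizontal tick with its bar is the mean ± SD of 3 libraries, and in every panel the 3 GRKO nonPC points lie below the 3 WT nonPC points.

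Among Paneth cells, 0 of the 44 members passed the test between genotypes, where 1.70% of all genes tested were higher and 1.52% lower in GRKO. With edgeR, 8 members had an unadjusted p under 0.05, as did 3491 of all 13057 genes tested. DESeq2 called 2 members higher (Oas2 and Trim38) and 2 lower (Gbp6 and Psmb9), where it called 782 of all genes higher and 639 lower. The median log2 fold change of the members was -0.06, against 0.03 for all genes, and 20 members had a positive and 24 a negative value. Without both WT replicate 2 libraries 0 members passed the test and this median was 0.31, and without both WT replicate 1 libraries it was -0.27, so that its sign rests on which WT libraries are used. Among all genes tested, 1 was higher and 0 were lower in each of these settings. Trim38 was at 0.0949, 2.1 and 1.3 TMM-scaled CPM in WT and 5.92, 10.9 and 1.7 in GRKO Paneth libraries, with a log2 fold change of 2.50 (adjusted p = 0.079) and overlapping ranges. Oas2 (chr5:120868398-120887933), an enzyme that makes the activator of an antiviral RNase, was at 2.66, 4.82 and 4.73 against 12.6, 13.7 and 6.24, all 3 GRKO libraries above WT, with a log2 fold change of 1.42 (adjusted p = 0.068). Irf7 was at 15.1, 48 and 20.7 in WT and 37.7, 48.9 and 32.2 in GRKO Paneth libraries, and WT replicate 2 reached the GRKO values. Without that WT Paneth library, Irf7 was the 1 member that passed the test as higher, where 42 of all 13379 genes tested were higher.

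For the 5 antigen processing genes, all log2 fold changes in Paneth cells were negative, from -1.34 for Ubd to -0.26 for Tap2, and none passed the test. Psmb8 was at 78, 166 and 115 in WT and 91.1, 70.9 and 32.6 in GRKO Paneth libraries, with GRKO replicate 3 the lowest of all. The GTPase gene Iigp1 was at 1.23, 14.1 and 4.5 in WT and 2.66, 1.5 and 0.473 in GRKO libraries, so that WT replicate 2 made most of its WT level.

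**Figure D3:**
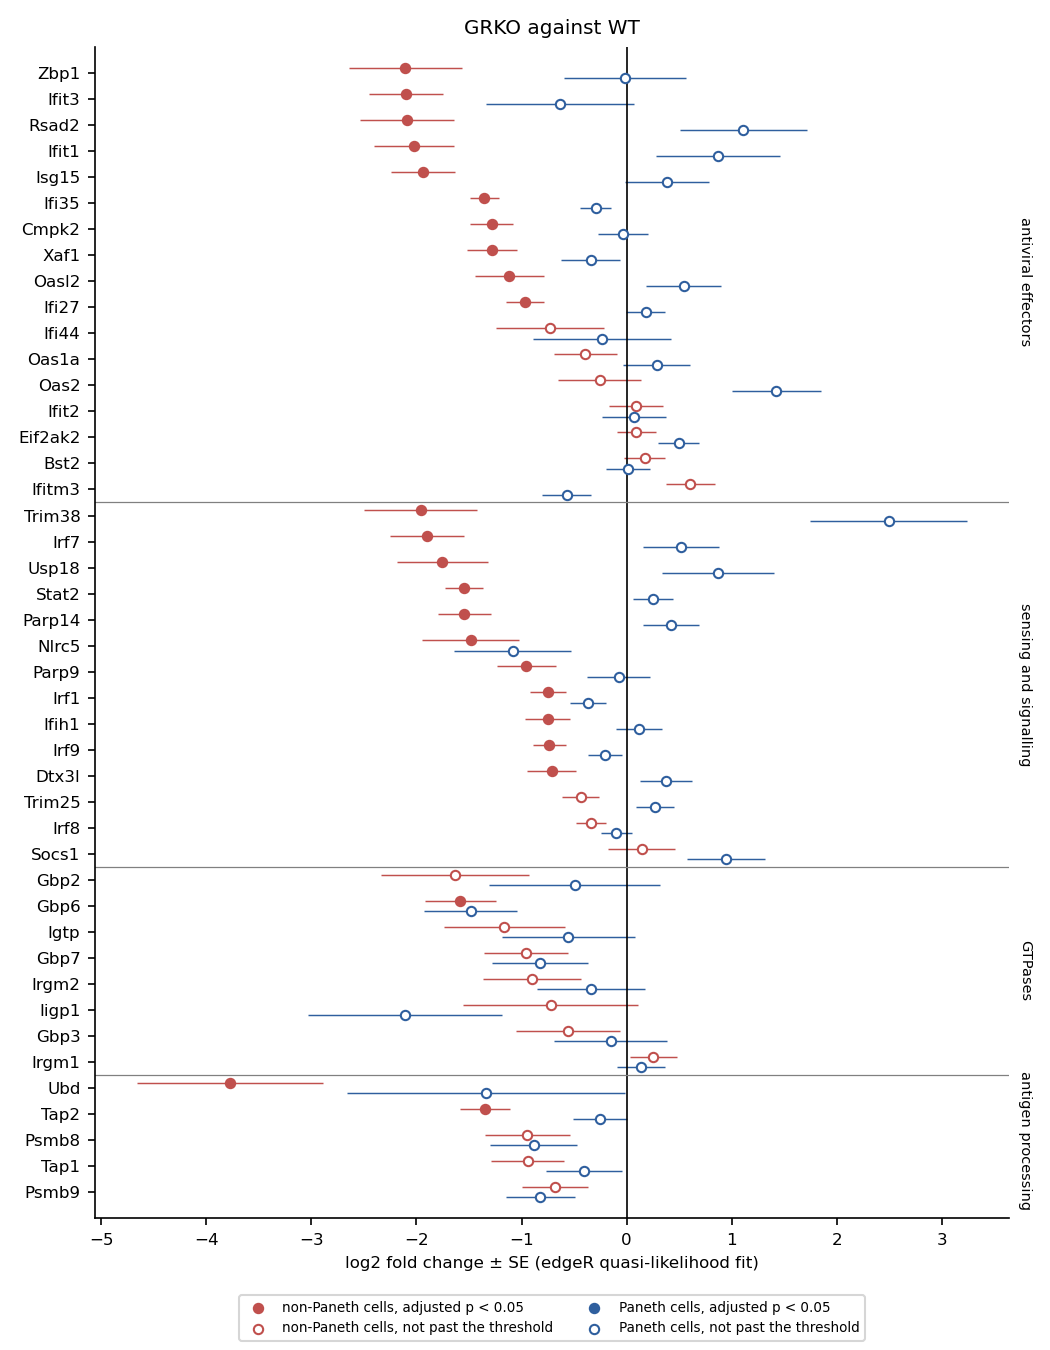
Difference between GRKO and WT for each member, as log2 fold change ± SE, in non-Paneth cells (red) and Paneth cells (blue), with filled points for an adjusted p under 0.05. The 24 filled points are all red and to the left of 0, and no blue point is filled.

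Whether the effect of genotype differed between the fractions was tested directly, as the difference of the effect in Paneth cells minus that in non-Paneth cells. This difference was positive and past the test for 14 members (31.8%) and negative for 1, Ifitm3, while 11.5% of all genes tested were positive and 7.28% negative. The median over the members was 0.84, against -0.01 for all genes. Without both WT replicate 2 libraries the difference was positive for 17 members and negative for 0, and 13 of the 15 calls were kept. In that setting, 1217 of all 13267 genes tested were positive and 465 negative. Each of the 14 was among the 24 that were lower in GRKO non-Paneth cells, an overlap that was not counted for all genes tested. The largest differences on the log2 scale were 4.46 (SE 0.91, adjusted p = 0.0094) for Trim38, 3.20 (SE 0.75, adjusted p = 0.0093) for Rsad2, 2.89 (SE 0.69, adjusted p = 0.016) for Ifit1, 2.63 (SE 0.68, adjusted p = 0.02) for Usp18 and 2.42 (SE 0.50, adjusted p = 0.0094) for Irf7. Isg15 differed by 2.32 (SE 0.50, adjusted p = 0.0069), Parp14 by 1.97 (SE 0.36, adjusted p = 0.0037) and Stat2 by 1.79 (SE 0.26, adjusted p = 0.00057). Of the 24, the 10 with no call of a difference include Ubd at 2.44 (adjusted p = 0.35) and Zbp1 at 2.09 (adjusted p = 0.099). The comparisons of genotype and of fraction share libraries, so that their values are set side by side here and are not independent of each other. Several of these values rest on few counts in WT Paneth cells, where the 3 libraries held 1, 17 and 11 counts of Trim38, 3, 13 and 2 of Rsad2, 4, 24 and 10 of Ifit1, and 6, 28 and 24 of Usp18. Over 21 alternatives the difference ranged from 3.70 to 5.33 for Trim38, from 2.78 to 4.54 for Rsad2, from 2.37 to 3.83 for Ifit1 and from 2.12 to 3.07 for Usp18. The call was lost with the replicate block for Trim38 (adjusted p = 0.061), and without GRKO Paneth replicate 2 for Ifit1 (adjusted p = 0.053) and Usp18 (adjusted p = 0.064).

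Paneth cells of WT crypts had lower levels of most members than WT non-Paneth cells. Of the 44, 30 were lower (68.2%) and 1 was higher, where 26.7% of all genes tested were lower and 24.0% higher. The 2 fractions of WT mice share replicate numbers whose libraries deviated together, and with the replicate block 2 members were higher and 35 lower. The block called 3272 of all 13057 genes higher and 3678 lower. Without both WT replicate 2 libraries 28 members were lower and 1 was higher, where 2840 of all 13267 genes were lower and 2373 higher. The median log2 fold change of the members was -1.33, against 0.01 for all genes. By role, 12 of 17 antiviral effectors, 13 of 14 genes of sensing and signalling, 2 of 8 GTPases and 3 of 5 antigen processing genes were lower. Markers of other cell types also differed between the WT fractions, with 7 of 7 enterocyte markers lower in Paneth cells (median log2 fold change -5.67), 4 of 4 tuft cell markers higher (5.85), 4 of 4 stem cell markers higher (1.28) and 2 of 4 goblet cell markers lower (-1.58), and their part in these results was not tested. Ifit1 was at 0.38, 2.97 and 1.18 in the WT Paneth libraries, far below the non-Paneth values above, with a log2 fold change of -4.63 (SE 0.50, adjusted p = 1.2e-05). Ifit3 at 0.285, 0.742 and 0.237 had a log2 fold change of -4.02 (SE 0.47, adjusted p = 4.0e-06), and Isg15 at 1.99, 4.95 and 1.54 one of -3.14 (SE 0.36, adjusted p = 5.7e-06). Every WT Paneth library of these 3 genes was below every WT non-Paneth library. The value of Ifit3 rests on 3, 6 and 2 counts in the WT Paneth libraries, so its size is uncertain.

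Further large changes between the WT fractions were in Trim38, with a log2 fold change of -4.15 (SE 0.70, adjusted p = 0.00064), and in Ubd, at 0.57, 6.18 and 2.13 in WT Paneth libraries, with one of -4.01 (SE 0.97, adjusted p = 0.0078). Parp14, at 15.3, 32.6 and 21.2 in Paneth libraries, had a log2 fold change of -3.04 (SE 0.27, adjusted p = 1.3e-06). Rsad2, at 0.285, 1.61 and 0.237, had one of -2.99 (SE 0.54, adjusted p = 0.00028), which was -4.02 without both WT replicate 2 libraries, and Usp18, at 0.57, 3.46 and 2.84, one of -2.56 (SE 0.50, adjusted p = 0.0009). WT replicate 2 held the highest Paneth value of each of these 5 genes. The single member that was higher in WT Paneth cells was Ifitm3, at 209.7, 236 and 205 in Paneth and 86, 84.9 and 100.2 in non-Paneth libraries, a log2 fold change of 1.26 (adjusted p = 0.00058). Bst2, which encodes tetherin, a protein that holds budding viruses at the membrane, was at 12.4, 17.9 and 16.3 in Paneth and 9.22, 14.5 and 14.4 in non-Paneth libraries and did not pass the test.

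In GRKO crypts fewer members passed the test between the fractions. Of the 44, 14 were lower in Paneth cells (31.8%) and 2 were higher, where 21.2% of all genes tested were lower and 18.0% higher. The median log2 fold change was -0.49, against -0.08 for all genes. Without both WT replicate 2 libraries 15 were lower and 2 higher, where 2477 of all 13267 genes tested were lower and 2314 higher. Enterocyte markers were lower in 6 of 7 cases and tuft cell markers higher in 4 of 4 between these fractions, and their part was not tested. Scaled by library totals alone, 34 members were lower and 0 higher, where 9968 of all 13057 genes tested were lower and 816 higher. The median of all genes was itself -1.05 with this scaling. Of the 30 members lower in WT Paneth cells, 13 were also lower in GRKO Paneth cells and 17 had no call there. The same split was not counted for all genes tested. Ifit3 was at 0, 0.441 and 0.284 in the GRKO Paneth libraries, with 0 counts in replicate 1, and its log2 fold change was -2.56 (SE 0.53, adjusted p = 0.0014). Ifit1 at 2.05, 3.17 and 2.55 had a log2 fold change of -1.73 (SE 0.45, adjusted p = 0.0099). Parp14 at 24.9, 38 and 28.9 had one of -1.08 (SE 0.26, adjusted p = 0.0051), Cmpk2 at 8.82, 10.5 and 11.4 one of -0.96 (SE 0.22, adjusted p = 0.0029), and Dtx3l at 30.1, 44.2 and 38.4 one of -0.95 (SE 0.24, adjusted p = 0.007).

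Tap1, at 40.8, 47.5 and 20.8 in GRKO Paneth libraries, had a log2 fold change of -1.08 (SE 0.36, adjusted p = 0.035), and Gbp6, at 0.604, 0.529 and 0.568, one of -1.11 (SE 0.42, adjusted p = 0.049). Over 22 alternatives, Tap1 kept its call in 15 and Gbp6 in 5, and without GRKO non-Paneth replicate 1 their adjusted p was 0.14 and 0.16 and only 7 members in all were lower. Without that library, 1659 of all 13313 genes tested were lower. Oas2 was higher in GRKO Paneth than in GRKO non-Paneth cells, at 12.6, 13.7 and 6.24 against 4.38, 5.74 and 2.67, a log2 fold change of 1.34 (SE 0.39, adjusted p = 0.016). For Oas2 the adjusted p was 0.056 without GRKO Paneth replicate 1 and 0.069 without replicate 2, and scaling by library totals alone gave a log2 fold change of 0.36 (adjusted p = 0.36). Ifi27, which encodes a small mitochondrial protein, was the other higher member, at 29.2, 23.8 and 21 against 11.8, 12.9 and 17.1, a log2 fold change of 0.82 (adjusted p = 0.0024) that became -0.17 with library totals. Several members with large WT differences had near-equal levels in the GRKO fractions, such as Irf7 with 37.7, 48.9 and 32.2 in Paneth and 43.1, 42 and 40.9 in non-Paneth libraries, and Zbp1 with 13.8, 13.8 and 12.5 against 14.3, 12.9 and 12.9.

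**Figure D4:**
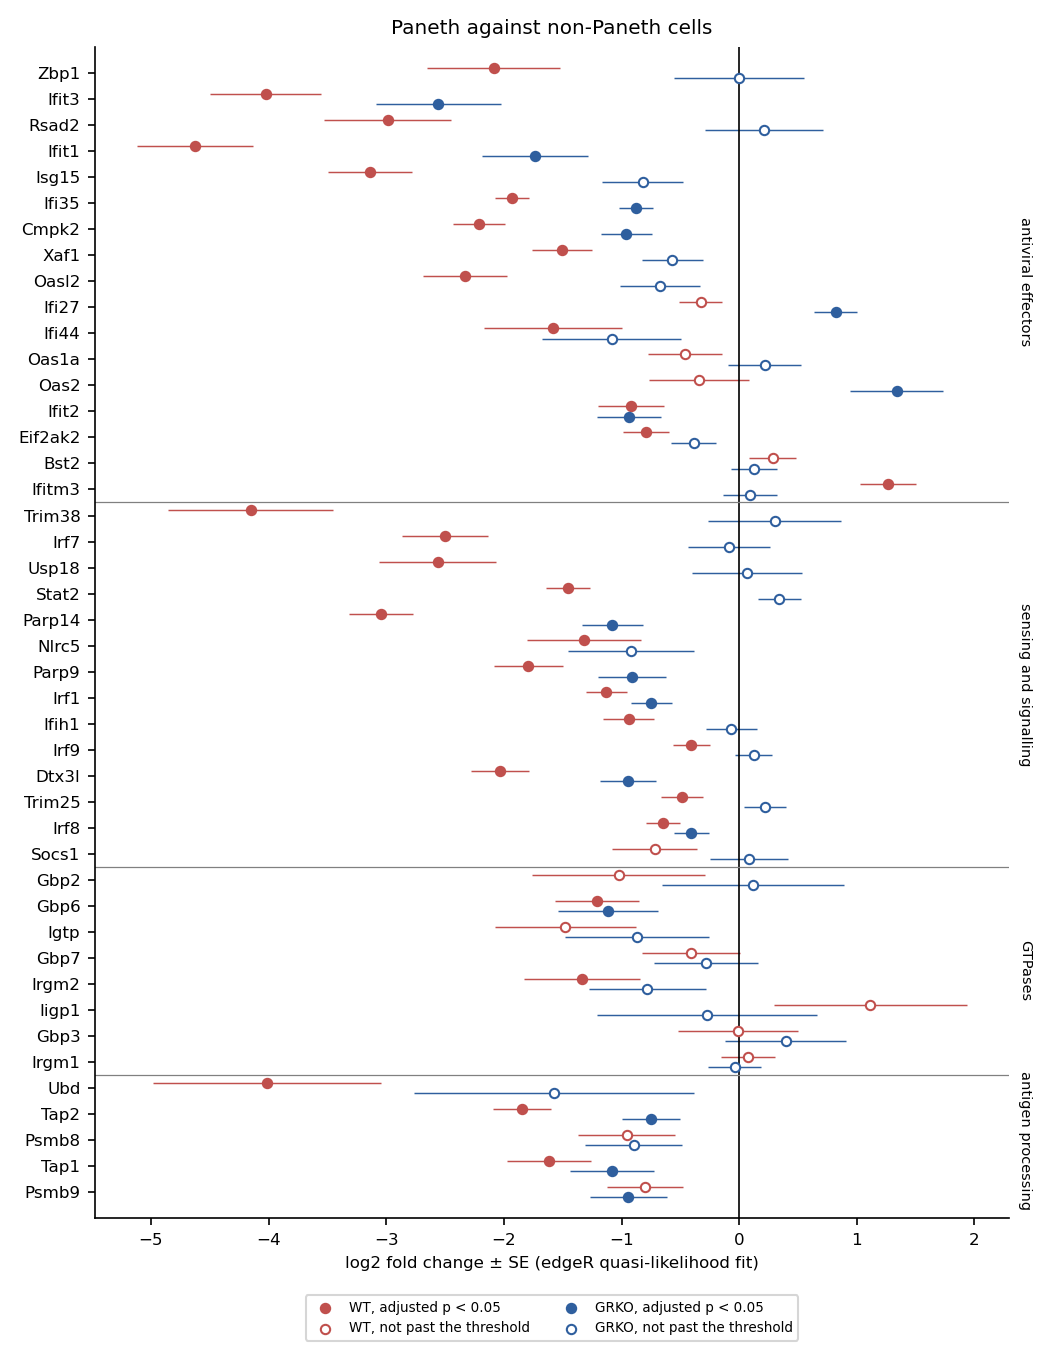
Difference between Paneth and non-Paneth cells for each member, as log2 fold change ± SE, in WT (red) and GRKO (blue) crypts, with filled points for an adjusted p under 0.05. The WT fraction shows 30 filled points left of 0 and 1 right of it, and GRKO shows 14 and 2.

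Across all 5 comparisons, 10 members had no call in any: Bst2, Gbp2, Gbp3, Gbp7, Igtp, Iigp1, Irgm1, Oas1a, Psmb8 and Socs1. Of these, 6 are GTPases. Ifi27 was the only member lower in GRKO non-Paneth cells that was not lower in WT Paneth cells, and the other 23 were lower in both comparisons, which share the WT non-Paneth libraries. How many of all genes tested show these patterns was not counted, so the 10 and the 23 describe the members only.

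The rest of the pathway was examined in lists of genes outside the 44, whose counts of lower genes in GRKO non-Paneth cells are to be read beside the 19.8% of all genes tested that were lower there (17.5% higher). No interferon was measured above the filter: 20 of the 21 ligand genes had 0 counts in all 12 libraries, which allows up to 3 counts of each in a library, and Ifnl2 held 0.160 TMM-scaled CPM in 1 WT non-Paneth library. Of 11 receptor and kinase genes, all tested, 7 were lower and 0 higher in GRKO than in WT non-Paneth cells. Ifnlr1, the specific chain of the type III interferon receptor, was at 22.4, 20.6 and 19.2 in WT and 8.24, 7.0 and 6.93 in GRKO libraries, a log2 fold change of -1.49 (adjusted p = 0.00024). Il10rb, the shared chain of the same receptor, had a log2 fold change of -0.71 (adjusted p = 0.00049). For type II interferon, the kinase gene Jak2 had one of -0.91 (adjusted p = 0.00041) and the receptor chain gene Ifngr2 one of -0.73 (adjusted p = 0.00037).

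Other interferon-stimulated genes, 42 of 47 tested, included 25 that were lower and 2 that were higher in GRKO non-Paneth cells, with a median log2 fold change of -1.23. Examples are Mx1 with -2.47 (adjusted p = 0.0007) and Ifitm2 with 0.61 (adjusted p = 0.0052), the neighbour and relative of Ifitm3. Of 10 class I presentation genes, 7 were lower, such as B2m with a log2 fold change of -1.01 (adjusted p = 0.0011) and H2-K1 with -1.14 (adjusted p = 0.00032). Nucleic acid sensors and adaptors gave 5 lower and 1 higher of 12 tested, with log2 fold changes of -1.02 (adjusted p = 0.00048) for Rigi, an RNA sensor, -0.98 (adjusted p = 9.9e-05) for Tbk1, the kinase that activates IRF3, and 0.59 (adjusted p = 0.0087) for Cgas, the DNA sensor. Restraint genes gave 1 lower of 7 tested (Socs3), and interferon-induced chemokines 1 lower of 3 (Cxcl11, at 6.3, 6.39 and 3.58 in WT and 0.326, 0.419 and 0.862 in GRKO libraries). Other GTPases outside the 44 gave 1 lower of 4 tested (Gbp8). In Paneth cells, the same lists gave 2 lower class I genes and 1 higher sensor gene between genotypes, and 0 calls in the others.

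Markers of other cell types moved with the genotype in non-Paneth cells. The 7 enterocyte markers summed to 16580 to 19550 TMM-scaled CPM in WT and 3167 to 4381 in GRKO non-Paneth libraries, with a median log2 fold change of -2.27, and 2 of 7 (Fabp1 and Slc5a1) passed the test. All 7 had a negative value, and for all 7 every GRKO library lay below every WT library. The 4 tuft cell markers summed to 3.12 to 8.78 in WT and 62.8 to 246 in GRKO non-Paneth libraries, and 4 of 4 were higher. Crypt stem cell markers were higher in 3 of 4 cases, summing to 3334 to 4547 in WT and 4314 to 5641 in GRKO. Of the 4 goblet cell markers, which had a median log2 fold change of -0.82, Muc2 and Tff3 were lower, and of the 7 Paneth markers Ang4 was higher, with a log2 fold change of 2.35. Vil1, the gene of villin, was at 2404, 2556 and 2465 in WT and 914, 843 and 868 in GRKO libraries. Vil1 belongs to a list of 4 epithelium markers, of which 2 were lower and 0 higher. The log2 fold changes of this list ran from -1.50 to 0.17, and for 1 of the 4 all GRKO libraries lay above all WT libraries. In Paneth cells, WT replicate 2, the highest WT Paneth library for 42 members, also held the highest sums of enterocyte markers (1083, against 140 in the lowest WT Paneth library) and of T cell and intraepithelial lymphocyte markers (16.2, against 1.04). The part of these markers in the results on the interferon genes was not tested.

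Immune markers were mostly low. The 10 markers of T cells and intraepithelial lymphocytes summed to 1.87 to 7.90 in WT and 0.646 to 6.66 in GRKO non-Paneth libraries, with 1 of 3 tested (Itgae) lower, and Cd3e, a defining gene, was at most 0.581 in any library. Ptprc, the pan-leukocyte gene, was at 19, 28.7 and 2.08 in GRKO Paneth and 0.285, 4.08 and 5.68 in WT Paneth libraries. Of the 3 genes of the T cell and intraepithelial lymphocyte list tested between genotypes in Paneth cells, 1 was lower and 0 were higher. Cd3e, Cd3d, Cd8a, Gzma, Gzmb and Nkg7 of that list had 0 counts in GRKO Paneth cells. The 11 macrophage and dendritic cell markers summed to 2.27 to 2.99 in WT and 0.466 to 1.34 in GRKO non-Paneth libraries. Only 1 of the 11 was tested, and it was lower, with a log2 fold change of -1.57. For 4 of the 11 all GRKO libraries lay below all WT libraries. Of the 5 stromal markers, 3 had 0 counts in WT and 4 in GRKO non-Paneth cells, and of the 4 erythroid markers 4 and 3. The part of the immune markers in those results was not tested either.

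**Figure D5:**
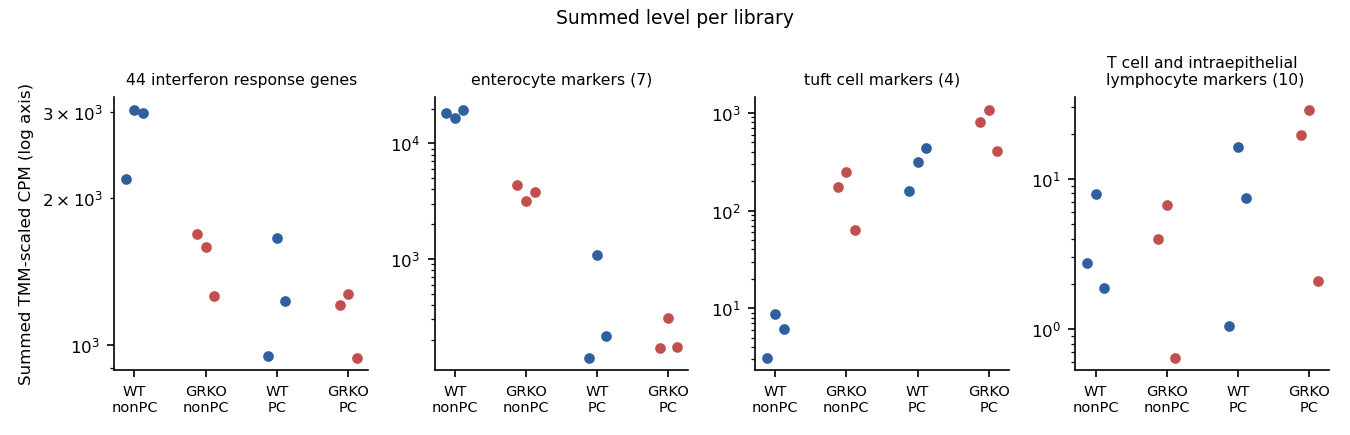
Summed TMM-scaled CPM per library (log axes) of the 44 members and of the enterocyte, tuft cell and T cell marker lists, with a point for each library (blue WT, red GRKO). The members and the enterocyte markers are both highest in WT non-Paneth cells, and the T cell markers stay below 30 in every library.

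The calls in non-Paneth cells were set beside the promoter letters as a description. Of the 17 genes with the core, 6 were lower, and of the 17 genes with a promoter but without it, 10 were lower. The 10 genes with an ISRE core and no GAS core, which include Isg15, Ifit1, Ifit3, Rsad2 and Stat2 printed above, held 6 lower genes and had a median log2 fold change of -1.59. The 7 genes with both cores, which include Bst2 and Igtp, held 0 lower genes with a median of -0.39. The 6 with the GAS core alone, which include Irf1, held 3 lower genes with a median of -0.85, and the 11 with neither held 7 with a median of -0.94. These counts cover the 300 bases of each promoter only, and leave out the 10 members without a matched promoter. Of those, Iigp1 and Oas2 did not pass the test in non-Paneth cells, and the others were lower.

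Some members share sequence or position with other genes, which limits what their counts measure. Besides Gbp6 and Ifit3, Oas1a had 70.8% of its 50-base windows unique in the genome. On the opposite strand, other genes overlap 44.6% of the exonic bases of Irf1, 24.5% of those of Ifi35, 14.65% for Tap2 and 14.59% for Psmb8. Some members overlap each other in this way, Tap1 with Psmb9 (12.37% and 19.55% of their bases) and Parp9 with Dtx3l (9.118% and 8.0%). Since the strand that was counted is not stated, reads of such pairs cannot be told apart. Igtp and Irgm2 overlap on the same strand (3.555% and 4.329%).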

How the data were processed

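RNA of 12 libraries (3 for each of 4 groups) was measured as counts per gene. Per the labels and the methods, the authors trimmed the reads of stranded libraries, single-end in the methods, with Trimmomatic 0.39, aligned them to mm39 with STAR 2.7.10a, and deposited the raw counts. No source used here states which strand column was taken. Of 55414 gene IDs, 54749 were named through GENCODE and 665 were not. Counts were tested with edgeR 4.0.16 (R 4.3.3; TMM scaling, filterByExpr, robust quasi-likelihood fit over all 12 libraries, Benjamini-Hochberg adjusted p under 0.05 over the 13057 genes tested). The code was tested on simulated data with 200 changed genes. Library totals were 11126297 to 15910292 counts. Alternatives were DESeq2 1.42.0, other scalings, filters and groups, a stricter rate, the replicate block and each library left out. Leaving out both WT replicate 1 or both WT replicate 2 libraries was added after the data were seen. For the fractions and the difference, the replicate block matched libraries of the same genotype and number. Between genotypes it matched libraries by number alone, which no label links.

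WT Paneth and non-Paneth libraries of the same number deviated together (correlations 0.35, 0.23 and 0.24 over genes, from the data and not from the labels), so the blocked counts stand beside that comparison. Replicates of a group differed by more than sampling noise (chi-square per degree of freedom from 12.3), so none was counted as a repeat. The members and lists were chosen with earlier results of these data known. Full test values were given for at most 8 members per comparison, those past the threshold with the largest change and a mean of at least 1 CPM (by library totals) in a group compared, and at most 4 genes per list; other values, and genes that make up a count of 5 or fewer, were named after their values were seen.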

Additional observations from a re-analysis of the deposited data

Results flagged for a closer look

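For 15 members the effect of genotype differed between Paneth and non-Paneth cells in a test of the difference itself (edgeR quasi-likelihood test, adjusted p under 0.05 over all genes, 3 libraries a group). Each value is the log2 fold change of GRKO against WT in Paneth cells minus that in non-Paneth cells. The antiviral effectors were Isg15 with 2.32, Ifit1 with 2.89, Rsad2 with 3.20, Oasl2 with 1.66, Cmpk2 with 1.25, Ifi27 with 1.14, Ifi35 with 1.06 and Ifitm3 with -1.17. The genes of sensing and signalling were Trim38 with 4.46, Usp18 with 2.63, Irf7 with 2.42, Parp14 with 1.97, Stat2 with 1.79 and Dtx3l with 1.09, and the antigen processing gene was Tap2 with 1.09. The calls of Dtx3l and Tap2 held in 11 of 21 alternatives each, that of Oasl2 in 13 and that of Ifitm3 in 14. Trim38 rests on a Paneth library at 0.0949 TMM-scaled CPM.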

How the results depend on the processing

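Members lower in GRKO non-Paneth cells numbered 24, and 16 (false discovery rate of 1%) to 33 (no filter) in the alternatives, with 21 to 29 when 1 library was left out. Among all genes, 2631 of 24077 were lower without a filter and 2271 to 2879 with 1 library left out. At 1%, only the members were counted, here and below. Members lower in WT Paneth against WT non-Paneth cells numbered 30, and 22 to 40 in the alternatives. With library totals, 7892 of all 13057 genes were lower in that comparison. No count or named value changed direction past the threshold. Higher members in the WT fractions numbered 1, and 2 without a filter and 2 with the replicate block. In the GRKO fractions, 2 higher members became 0 with library totals, 1 at a false discovery rate of 1% and 1 to 2 with 1 library left out, and 14 lower members became 34, 22 without a filter, 22 with the replicate block, 7 at 1% and 7 to 16 with 1 library left out. Lower genes among all tested there numbered 9968 with library totals, 3195 of 24077 without a filter and 3021 with the replicate block. They numbered 1639 to 3096 with 1 library left out. Whether GRKO libraries of the same number share an origin is not stated, and their correlations were 0.013, 0.26 and 0.47. Between genotypes in Paneth cells, 0 higher members became 2 with DESeq2, 7 without a filter, 1 with the replicate block and 0 to 1 with 1 library left out, and 0 lower members became 2 with DESeq2 and 7 without a filter. DESeq2 called 782 of all 13057 genes higher and 639 lower. Without a filter, 1037 of all 24077 genes were higher and 743 lower. The replicate block gave 559 higher genes, and leaving out 1 library gave 0 to 928. In non-Paneth cells, 0 higher members became 2 with library totals, 1 without a filter, 1 with only the groups compared, 1 with the replicate block and 0 to 1 with 1 library left out. Higher genes among all tested numbered 4348 with library totals, 2381 of 24077 without a filter and 2752 of 12682 with only the groups compared. They numbered 2353 with the replicate block and 1358 to 2625 with 1 library left out. For the difference between fractions, 14 higher members became 8 at 1%, and 1 lower member became 2 without a filter, 0 at 1%, 0 without both WT replicate 1 libraries, 0 without both WT replicate 2 libraries and 0 to 1 with 1 library left out. For all genes, 970 of 24077 were lower without a filter and 460 to 1028 with 1 library left out. Leaving out both WT replicate 1 libraries gave 725 lower genes of 13279, and both WT replicate 2 libraries 465 of 13267. The cause of these shifts was not tested. Library totals moved the median of all genes to -0.68 (WT fractions), -1.05 (GRKO fractions), 0.31 (genotype, non-Paneth) and -0.28 (difference), and turned the 2283 higher and 2586 lower genes of all tested in non-Paneth cells into 4348 and 1478. At these depths, 21 of 528 member values were under 10 counts.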
